A study of Mus musculus with 56 samples.

Results

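The response to Wnt3a was examined in D164A/- cells, a mammary tumor cell line in which the remaining β-catenin allele carries the D164A mutation. The comparison comprised 4 of the 56 samples of the series, 2 untreated and 2 that had received Wnt3a at 100 ng/ml over 3 days, chosen by genotype, treatment and experiment in the sample labels. The replicates were compared in pairs by their number. Gene expression was measured by RNA sequencing of poly(A) RNA.

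All lines came from tumors of MMTV-PyMT mice on the FVB/N background, in which the MMTV promoter drives the polyoma middle T oncogene in mammary epithelium. fl/fl cells carried floxed, otherwise wild-type β-catenin alleles. D164A/fl cells carried 1 D164A allele beside 1 floxed allele. D164A/- cells were made from D164A/fl cells by infection with an adenovirus encoding Cre recombinase and GFP, followed by sorting for GFP, so that the floxed allele was deleted. fl/fl and D164A/fl cells were treated for the same 3 days and served for comparison, with 4 samples each. The series describes its replicates as biological duplicates without stating whether they were separate lines or separate cultures. In the fit with paired replicates, the p-values rest on how much the treated minus untreated change differed between replicate pairs. This spread was pooled over 24 samples of fl/fl, D164A/fl and D164A/- cells, with 6 residual degrees of freedom. The 24 samples included those of a TGFβ experiment, which lasted 4 days, with TGFβ at 2 ng/ml in the treated ones. Whether the sequenced D164A/fl cultures were the parents of the D164A/- cells is not given in the sources used here, so deletion of the floxed allele and differences between lines cannot be told apart. The protocol text in the labels names Pygo2 lines, whereas titles and genotypes name β-catenin lines, and the latter were used.

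Wnt ligands bind Frizzled and LRP receptors and stop the destruction complex from degrading β-catenin, which then enters the nucleus and binds TCF/LEF factors at target genes. Several of these targets, among them Axin2, Rnf43, Znrf3 and Notum, encode inhibitors of the pathway and form a negative feedback loop. Bcl9 and Bcl9L bind the N-terminal armadillo repeat of β-catenin and connect it to Pygopus. The D164A mutation abrogates this interaction and leaves the C-terminal transactivation domain intact.

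Values are given in CPM, that is reads per M of an effective library size (counts per M reads, scaled between samples). Changes are log2 differences of CPM + 1 (treated minus untreated) with the standard error (SE), which understate changes of genes near or below 1 CPM. A gene was called, and described as having risen or fallen, at a Benjamini-Hochberg adjusted p of at most 0.05 in limma and an absolute log2 change of at least 1. The D164A/- samples held 23.2 to 26.9 M reads, and 3 reads corresponded to 0.102 to 0.127 CPM. The summed level of 5 epithelial markers was 2121 and 3374 CPM without Wnt3a and 2365 and 3413 CPM with it, whereas 5 endothelial markers summed to 0.219 to 0.511 CPM and 4 adipocyte markers to 0.127 to 0.584 CPM. The 8 leukocyte markers summed to 1.97 and 5.02 CPM without Wnt3a and to 2.54 and 6.9 CPM with it, and the 8 fibroblast markers to 84.7 and 70.4 CPM without and 64 and 50.8 CPM with it. In each sample 5 or 6 of the 8 fibroblast markers were below 3 reads, so few genes carried this sum. Of 5 tested fibroblast markers 2 had a change above 0 and 2 below, from -0.56 (Pdgfra) to 0.99 (Col1a1). None of them was called. In these bulk samples fewer cells of a type and less RNA per cell cannot be told apart.

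Stra6, Tnfrsf19 and Mmp7 were 3 genes that rose in D164A/- cells and had the TCF/LEF core motif ATCAAAG, on either strand, near a transcription start. Their sequences are shown together with that of Axin2, the classical feedback target, which had no match in this window. Each line holds the 250 bases before the start on the gene's own strand, from RefSeq annotation of GRCm38.p6, and capitals mark the motif. The windows were chr9:58129099-58129348 (plus strand) for Stra6, chr14:61037988-61038237 (minus strand) for Tnfrsf19, chr9:7692091-7692340 (plus strand) for Mmp7 and chr11:108920099-108920348 (plus strand) for Axin2.
Stra6: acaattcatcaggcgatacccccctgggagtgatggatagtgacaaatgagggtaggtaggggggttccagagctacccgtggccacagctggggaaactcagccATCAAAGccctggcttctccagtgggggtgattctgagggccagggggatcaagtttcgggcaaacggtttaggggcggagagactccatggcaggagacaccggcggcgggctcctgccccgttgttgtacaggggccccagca
Tnfrsf19: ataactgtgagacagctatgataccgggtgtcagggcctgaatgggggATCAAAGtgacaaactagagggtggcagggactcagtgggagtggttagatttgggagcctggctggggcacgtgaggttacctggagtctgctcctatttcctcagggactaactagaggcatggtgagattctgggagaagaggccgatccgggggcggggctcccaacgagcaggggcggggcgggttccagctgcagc
Mmp7: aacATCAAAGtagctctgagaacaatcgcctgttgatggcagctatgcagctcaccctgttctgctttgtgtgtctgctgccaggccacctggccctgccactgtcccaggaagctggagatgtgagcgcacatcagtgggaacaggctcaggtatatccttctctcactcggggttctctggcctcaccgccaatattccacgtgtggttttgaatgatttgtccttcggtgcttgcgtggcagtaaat
Axin2: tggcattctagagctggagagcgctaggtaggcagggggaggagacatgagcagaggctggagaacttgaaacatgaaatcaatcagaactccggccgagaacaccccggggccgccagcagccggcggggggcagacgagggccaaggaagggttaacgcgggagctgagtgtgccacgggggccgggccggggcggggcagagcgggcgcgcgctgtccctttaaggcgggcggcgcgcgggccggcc
The motif began 145 bases before this start of Stra6, 202 before that of Tnfrsf19 and 247 before that of Mmp7. Stra6 had 4 annotated starts and Tnfrsf19 and Mmp7 had 2 each, and the motif was found before only 1 start of each gene. For Mmp7 the match lay just downstream of its other annotated start. Of the 82 genes that rose, 58 had a promoter sequence and 6 of them (10.3%) held the motif in a window from 250 bases before to 50 bases after a start. Among the 62 genes that fell it was 4 of 44 (9.09%), and among all tested genes with a promoter 320 of 10188 (3.14%). Over all annotated promoter windows, whether or not the gene was tested, 1225 of 32851 (3.73%) held it. These matches describe letters in the windows, and genes differ in how many starts are annotated.

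Upon treatment with Wnt3a, 82 genes rose and 62 fell in D164A/- cells, which were 0.637% and 0.482% of the 12868 genes tested and 1.12% together. Without the pairing of replicates 33 rose and 16 fell (0.381% together). All 82 and all 62 moved the same way in both pairs. Treated and untreated values did not overlap for 77 of the genes that rose and 48 of those that fell, compared with 19.5% of all genes tested. The genes were called on these same samples, so neither the shared direction nor the lack of overlap is separate support for the changes. The change was larger in pair 2 for 56 of the 82 and 41 of the 62. The median change of the genes that rose was 1.36 in pair 1 and 1.62 in pair 2.

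The largest increase was that of Stra6 (Entrez 20897, chromosome 9, 58063793 to 58154004), a cell surface receptor for retinol-binding protein that takes up vitamin A. Its level was 0 and 0.169 CPM in the untreated samples (0 and 4 reads) and 17.7 and 141 CPM in the treated ones (log2 change 5.58, SE 0.45, adjusted p = 0.000422 in limma). Both treated samples were far above both untreated ones, and the treated samples differed between them by several fold. Axin2 (Entrez 12006, chromosome 11, 108917828 to 108950783), a scaffold of the destruction complex, went from 0.365 to 39.9 CPM in pair 1 and from 1.52 to 95.3 CPM in pair 2. These were 110-fold and 62.7-fold differences (log2 change 5.08, SE 0.34, adjusted p = 0.000149). Axin2, the canonical feedback gene, thus rose in both pairs of cells labelled D164A/-.

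Il17rd (Entrez 171463, chromosome 14, 27038964 to 27107286) encodes Sef, an inhibitor of FGF and ERK signaling. It went from 1.31 to 19.7 CPM and from 2.15 to 37.1 CPM (log2 change 3.38, SE 0.22, adjusted p = 0.000149). Ahr (Entrez 11622, chromosome 12, 35497979 to 35534989), a ligand-activated transcription factor, went from 27.7 to 198 CPM and from 25.9 to 337 CPM (log2 change 3.22, SE 0.21, adjusted p = 0.000149). Both genes were also called without the pairing, with adjusted p of 0.000224 for Il17rd and 4.16e-05 for Ahr in limma. Dio2, the deiodinase that activates thyroid hormone, rose from 23.6 to 166 CPM and from 14.9 to 160 CPM, and the pairs lay close together. Il33, a cytokine released by damaged epithelium, rose from 37.9 to 300 CPM and from 20.8 to 118 CPM, but its adjusted p without the pairing was 0.0503.

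The other genes among the 15 largest increases were Cryba4, Mab21l4, Tmprss4, Kcnj2, Mmp24, Mal, Msln, Serpina3h and Calml3, with log2 changes from 2.29 to 3.98. Cryba4, a lens crystallin, rose from 0.219 to 13.4 CPM and from 1.14 to 44.1 CPM. Kcnj2, an inward rectifier potassium channel, rose from 6.38 to 37.4 CPM and from 8.61 to 100 CPM. Mesothelin (Msln), a surface glycoprotein, rose from 13.1 to 94.2 CPM in pair 1 and from 80.9 to 456 CPM in pair 2, so that its untreated level already differed between replicates. The calls of Msln, Mal and the serine protease gene Tmprss4 were lost without the pairing, with adjusted p of 0.214, 0.148 and 0.0734 in limma. Serpina3h belongs to a cluster of closely related genes, and reads shared with its copies make its level uncertain.

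Among the genes that fell, Bpifb4, of the BPI fold family, had the largest decrease on the log2(CPM + 1) scale (Entrez 381399, chromosome 2, 153938217 to 153963852). It fell from 14.5 to 0.95 CPM and from 31.3 to 1.13 CPM (log2 change -3.46, SE 0.37, adjusted p = 0.00173 in limma). Its relative Bpifb3 fell from 2.3 to 0.0339 CPM and from 5.02 to 0.0365 CPM, with both treated samples below 3 reads. With a pseudocount of 0.1 the decrease of Bpifb3 was the larger one (-4.70 against -4.24 for Bpifb4). Atp6v0a4, a subunit of the proton-pumping V-ATPase, fell from 29.2 to 3.12 CPM and from 49.8 to 3.76 CPM (log2 change -3.15, SE 0.32, adjusted p = 0.0016). For all 3 genes the treated samples lay well below the untreated samples in both pairs, and the calls held without the pairing.

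Cbs, the first enzyme of transsulfuration, fell from 10.4 to 1.36 CPM and from 20.7 to 1.42 CPM. Transferrin (Trf) fell from 185 to 47.5 CPM and from 171 to 20.4 CPM, although its adjusted p without the pairing was 0.053. F13a1, the A subunit of coagulation factor XIII, fell from 15.7 to 5.02 CPM and from 15.8 to 2.96 CPM. Hey1, described with the Notch pathway, Itgb3, Pi15 and Loxl3 completed the 10 largest decreases with log2 changes of -2.37, -2.34, -2.25 and -1.75, and none of these 4 was called without the pairing.

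**Figure D1:**
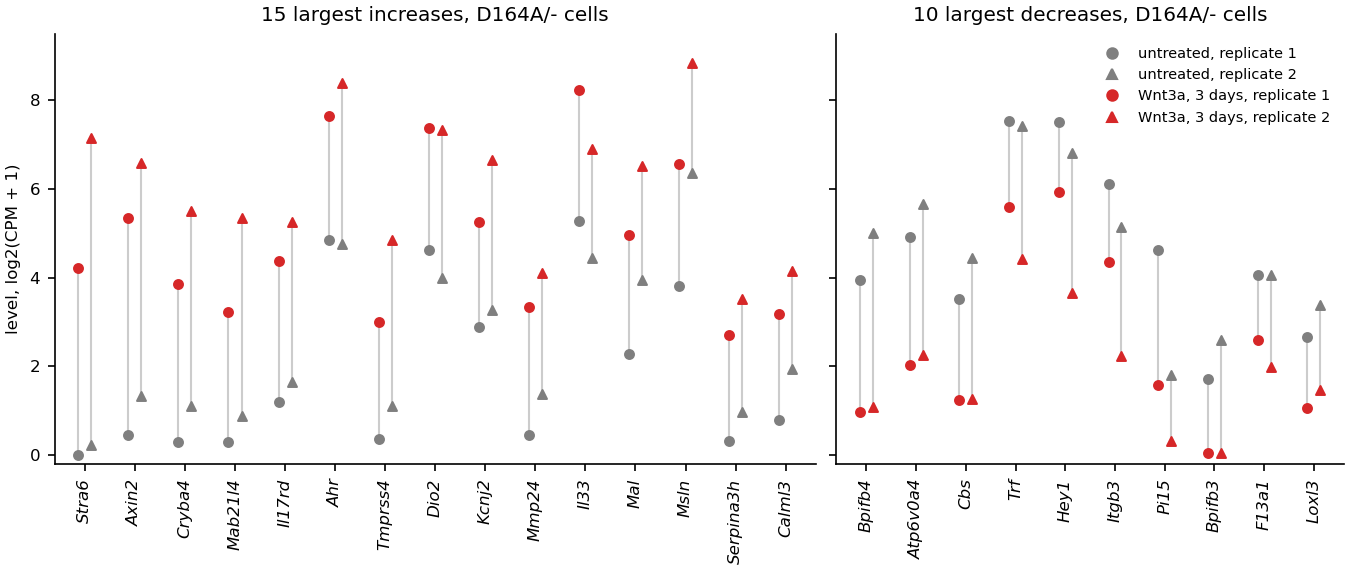
Levels (log2 of CPM + 1, vertical axis) of the genes that rose most (15, left) and fell most (10, right) in D164A/- cells. Circles are replicate 1, triangles replicate 2, gray untreated, red Wnt3a, and lines join the pairs; red symbols lie above gray ones in both pairs on the left and below them on the right.

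**Figure D2:**
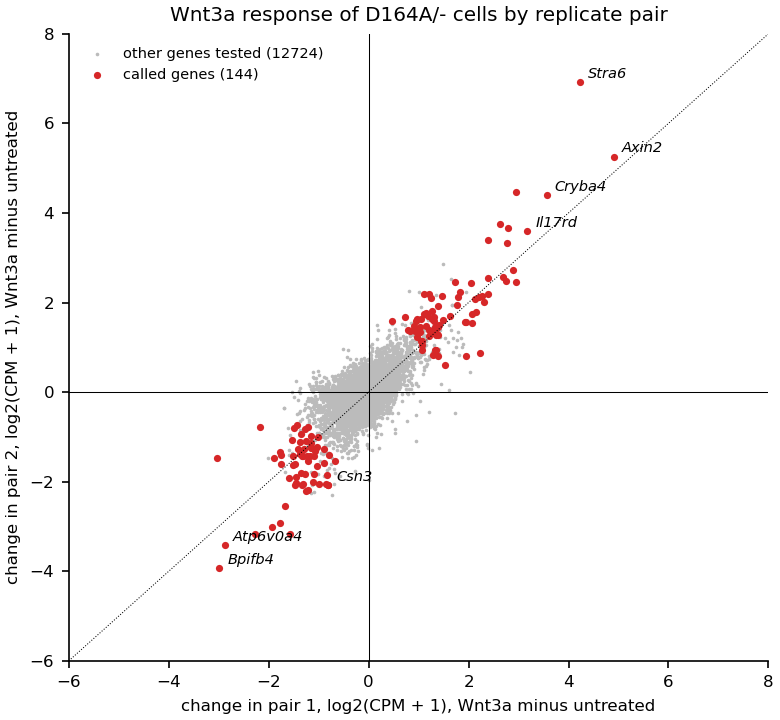
Change in replicate pair 2 (vertical axis) against pair 1 (horizontal axis) for the 12868 genes tested, each as treated minus untreated log2(CPM + 1). Red points are the 144 called genes, which lie in the upper right or lower left quadrant; the dotted line marks equal changes.

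The feedback inhibitors of the Wnt pathway did not move together. Of 14 tested members 4 rose and 1 fell, with a median change of 0.30 against 0.00 for all genes tested. Beside Axin2 these were Rnf43, Wif1 and Tnfrsf19, and all 4 calls held without the pairing. Rnf43, the ubiquitin ligase that removes Frizzled from the membrane, rose from 9.44 to 22.7 CPM and from 8.53 to 29.9 CPM (log2 change 1.44, SE 0.23, adjusted p = 0.014 in limma). A second control was the untreated D164A/- samples of the TGFβ experiment, which were kept for 4 days. All fits against it were made without the pairing, so day, experiment and fit differed together from the main comparison. Against this second control the change of Rnf43 was 0.86 and was not called (adjusted p = 0.116 in limma). Wif1, a secreted Wnt-binding protein, rose from 0.0365 to 1.59 CPM and from 0 to 1.61 CPM. Tnfrsf19, also known as Troy, rose from 0.0729 to 1.39 CPM and from 0.169 to 2.99 CPM. Levels of Wif1 and Tnfrsf19 thus remained low in the treated cells. Trabd2b, a membrane protease that inactivates Wnt ligands, fell from 113 to 53.4 CPM and from 154 to 61.6 CPM, but was not called without the pairing (adjusted p = 0.243), and against the untreated D164A/- samples of the TGFβ experiment its change was 0.01.

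Other feedback genes did not pass the test. Notum, the secreted deacylase of Wnt ligands, had 8.64 and 29.5 CPM in pair 1 and 35.3 and 139 CPM in pair 2 without and with Wnt3a (log2 change 1.81, SE 0.43, adjusted p = 0.0879 in limma). The untreated level of replicate 2 exceeded the treated level of replicate 1, so that its groups overlapped. Against the untreated samples of the TGFβ experiment the change of Notum was 3.83 and was called (adjusted p = 0.0073). Nkd2, which binds Dishevelled, had 78.2 and 169 CPM in pair 1 and 108 and 284 CPM in pair 2 (adjusted p = 0.132), and Znrf3, the relative of Rnf43, had a log2 change of 0.47 (adjusted p = 0.231). Nkd1 was below the filter for low values, with at most 0.109 CPM in any D164A/- sample.

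Of 17 tested TCF/LEF factors and transcription factor targets 1 rose, with a median change of -0.03. This was Sp6, a zinc finger factor, which went from 3.32 to 9.46 CPM and from 6.67 to 18.1 CPM and was not called without the pairing (adjusted p = 0.327 in limma). Tcf7 had 34.9 and 60.6 CPM in pair 1 and 46.8 and 65.1 CPM in pair 2 (log2 change 0.62, adjusted p = 0.076), and Myc had 66.8 and 104 CPM and 94.5 and 109 CPM (log2 change 0.42, adjusted p = 0.691). Lef1 was below 1 CPM in all 4 samples, and Sp5 was below the filter for low values. Of 20 other Wnt target genes 1 rose, with a median change of 0.07. This was Mmp7, the secreted protease matrilysin, which went from 0 to 1.39 CPM and from 0.0844 to 3.65 CPM (log2 change 1.68, SE 0.19, adjusted p = 0.00199). Cyclin D1 (Ccnd1) had 890 and 888 CPM in pair 1 and 1147 and 1006 CPM in pair 2, and Lgr5 did not exceed 0.292 CPM.

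Among 9 tested Wnt ligands and secretion genes Wnt7a rose from 0.182 to 1.56 CPM and from 0.464 to 5.69 CPM (log2 change 1.65, SE 0.24, adjusted p = 0.00798 in limma). Neither the 17 tested receptors and R-spondins nor the 28 genes of the destruction complex and the nuclear partners of β-catenin held a called gene, with median changes of -0.14 and 0.04. Ctnnb1, the β-catenin gene, had 828 and 979 CPM in pair 1 and 1045 and 1337 CPM in pair 2 (log2 change 0.30, adjusted p = 0.656). Counts per gene do not tell the D164A allele from a floxed one, so the genotype was not checked in these data. Bcl9, Bcl9l and Pygo2, the coactivators on the D164A side of β-catenin, had log2 changes of 0.18, -0.23 and 0.01 (adjusted p = 1 each).

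ERK feedback genes, which are transcribed upon FGF and Ras signaling and restrain or report it, moved in both directions. Of 16 members 1 rose, Il17rd, and 3 fell, with a median change of -0.21. Spry4, an inhibitor of receptor tyrosine kinase signaling, fell from 19.4 to 7.77 CPM and from 13.3 to 2.15 CPM. Dusp6, the ERK phosphatase, fell from 168 to 71.9 CPM and from 113 to 38.2 CPM. Etv5, an ETS factor, fell from 126 to 70.2 CPM and from 112 to 30.3 CPM. The log2 changes of the 3 genes were -1.70, -1.38 and -1.34, and none was called without the pairing (adjusted p = 0.221, 0.392 and 0.92 in limma). Il17rd was called either way.

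**Figure D3:**
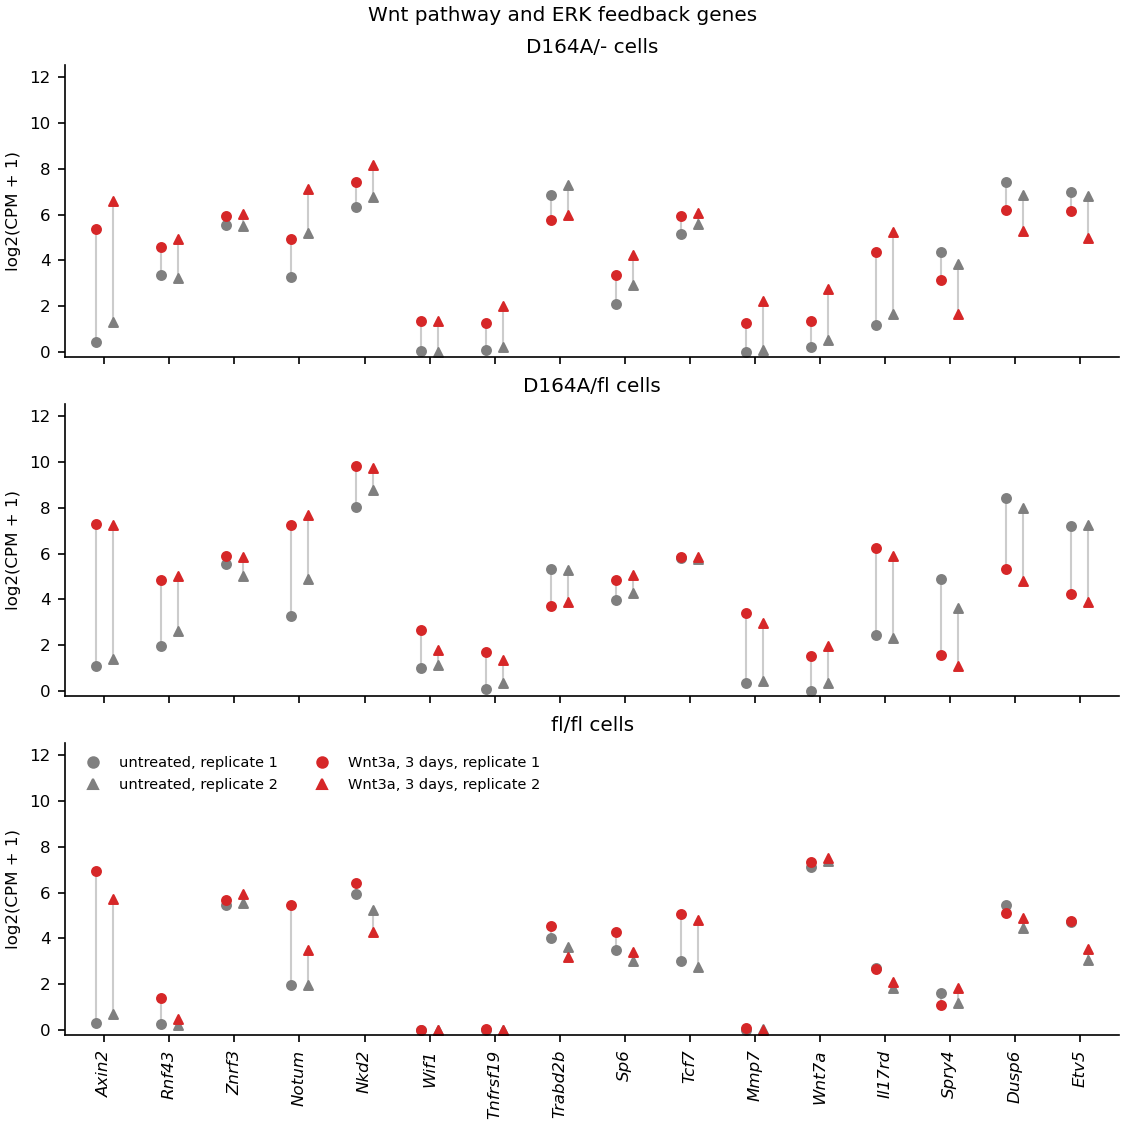
Levels (log2 of CPM + 1, vertical axis) of Wnt pathway and ERK feedback genes in D164A/- (top), D164A/fl (middle) and fl/fl cells (bottom). Circles are replicate 1, triangles replicate 2, gray untreated, red Wnt3a; Axin2 was higher with Wnt3a in all pairs, whereas Il17rd was higher in D164A/- and D164A/fl cells and nearly level in fl/fl cells.

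Of 12 tested retinoid and Ahr genes 3 rose and none fell, with a median change of 0.52. Beside Stra6 and Ahr this was Cyp1a1, a cytochrome P450 induced by Ahr. Cyp1a1 rose from 6.85 to 37 CPM and from 22.5 to 103 CPM (log2 change 2.21, SE 0.25, adjusted p = 0.00201 in limma) and was not called without the pairing (adjusted p = 0.473). The called genes thus included an uptake receptor for retinol, the Ahr receptor and an Ahr target. Of the 12 genes 3 had a change below 0, the lowest being that of Dhrs3 (-0.71).

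Squamous differentiation genes encode keratins, desmosomal proteins and components of the cornified envelope. Of 23 tested members 2 rose, both also without the pairing, and 22 of 23 had a change above 0 (median 0.62). Calml3, a calmodulin-like protein of stratified epithelium, rose from 0.729 to 8.04 CPM and from 2.87 to 16.7 CPM. Tgm3, a transglutaminase, rose from 0.365 to 2.48 CPM and from 0.844 to 3.98 CPM (log2 change 1.39, SE 0.11, adjusted p = 0.000423 in limma).

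Mammary luminal markers had a median change of -0.64, and 3 of 13 tested fell. κ-Casein (Csn3) went from 2662 to 1514 CPM in pair 1 and from 545 to 128 CPM in pair 2 (log2 change -1.45, SE 0.30, adjusted p = 0.0474 in limma). The untreated levels differed more between replicates than the change within either pair, and the groups overlapped. β-Casein (Csn2) went from 5.43 to 2.44 CPM and from 2.19 to 0.073 CPM, and the prolactin receptor (Prlr) from 177 to 69.4 CPM and from 43.2 to 15.5 CPM. None of the 3 was called without the pairing, nor with a pseudocount of 0.1. Against the untreated D164A/- samples of the TGFβ experiment, in a fit without the pairing, the changes of Csn3, Csn2 and Prlr were -3.49, -3.76 and -2.76, and all 3 were called. None of the 9 tested basal markers was called (median -0.02), and whether the lists differed was not tested.

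Other called members were Hey1, Cldn4, Tnc and Xbp1. Hey1, a repressor induced by Notch, fell from 181 to 60.1 CPM and from 112 to 11.6 CPM and was the called gene among 11 of the Notch pathway (adjusted p = 0.018 in limma, 0.132 without the pairing). Among 18 epithelial markers the tight junction gene Cldn4 rose from 5.25 to 22.8 CPM and from 23 to 70.1 CPM (adjusted p = 0.881 without the pairing). Among 17 mesenchymal markers tenascin C (Tnc) fell from 555 to 247 CPM and from 887 to 327 CPM (adjusted p = 0.105 without the pairing), and its change was 0.41 against the untreated samples of the TGFβ experiment. Vimentin (Vim) had 354 and 110 CPM in pair 1 and 346 and 100 CPM in pair 2 (log2 change -1.73, SE 0.37) and did not pass the test (adjusted p = 0.055), although its groups did not overlap. Xbp1, a transcription factor of the unfolded protein response, rose from 135 to 313 CPM and from 140 to 333 CPM, and was called without the pairing too, but its change was 0.85 against the untreated samples of the TGFβ experiment and was not called. The 13 ER stress genes had a median of -0.42. In total, 9 of 21 lists held no called gene, among them the cell cycle (30 genes, median -0.20), interferon-stimulated genes (20 genes) and YAP/TEAD targets (15 genes).

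**Figure D4:**
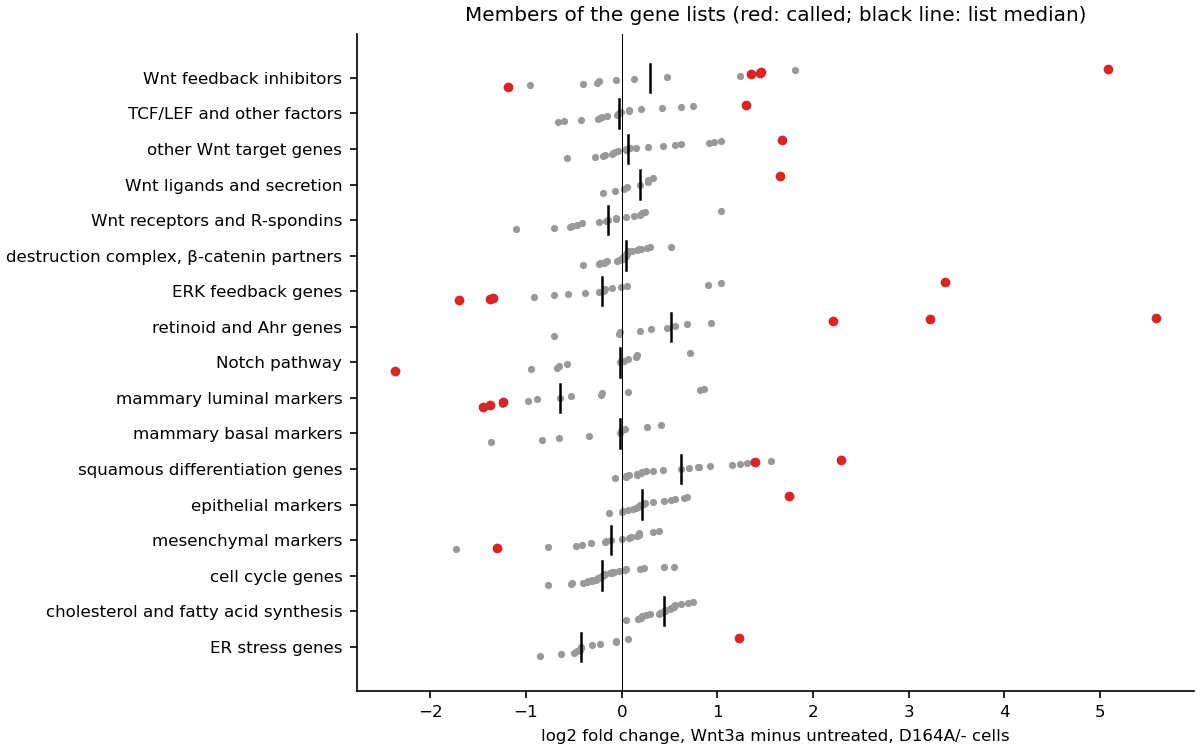
Log2 change upon Wnt3a in D164A/- cells (horizontal axis) for the members of 17 gene lists (rows). Each point is a gene, red if called, and black lines mark list medians; the medians lie between -0.64 (luminal markers) and 0.62 (squamous genes), and the called genes farthest to the right are Stra6 and Axin2.

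Against fl/fl cells, the Wnt3a response of D164A/- cells differed for 511 genes (3.97%), and for 7 genes without the pairing. The fl/fl and D164A/- lines came from different tumors, and the D164A/- cells had been infected with the Cre virus and sorted. Genotype, tumor line and this history cannot be told apart in the comparison. In their own response fl/fl cells had 122 genes called higher and 1367 called lower, of the 12868 tested. A positive difference therefore also arises where a gene fell in fl/fl cells only. The difference of the responses followed the GC content of the transcripts, with a rank correlation of -0.755 across 9213 genes, compared with 0.175 for the response of D164A/- cells itself and 0.814 for that of fl/fl cells. In D164A/- cells it was 0.393 in pair 1 and -0.131 in pair 2, so that the pairs went in opposite directions. The part of GC content in these calls was not tested beyond removing its trend, after which 332 genes were called, 175 of them among the 511, and which changed the split from 434 positive and 77 negative differences to 209 and 123. Il17rd was called in each of these fits. In fl/fl cells it had 5.55 and 5.27 CPM in pair 1 and 2.57 and 3.34 CPM in pair 2, without and with Wnt3a, and its response was 3.27 higher in D164A/- cells on the log2 scale (SE 0.31, adjusted p = 0.00628 in limma, 0.0302 without the pairing). Bpifb4 was at 0.221 to 0.406 CPM in all fl/fl samples (difference of the responses -3.57, adjusted p = 0.0167 in limma, 0.0434 without the pairing). At such low values a decrease in fl/fl cells could hardly show, so this difference mainly restates the decrease in D164A/- cells.

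The Axin2 response of D164A/- cells minus that of fl/fl cells was -0.71 on the log2 scale (SE 0.49); in fl/fl cells it went from 0.252 to 121 CPM and from 0.652 to 51 CPM. The difference did not pass the test (adjusted p = 0.349), which does not show that the responses were equal. Stra6 also did not differ by the test (difference -0.04, SE 0.64). The response of Ahr was larger in D164A/- cells by 2.02 (SE 0.30, adjusted p = 0.0167, 0.121 without the pairing), and the response of Tcf7 differed by -1.43 (SE 0.20, adjusted p = 0.0161, 0.083 without the pairing). Dio2 and Mme, the neutral endopeptidase, were the other genes with the largest positive differences, at 3.42 and 3.38, while Atp6v0a4 and Vim had differences of -3.49 and -2.77. None of these 4 was called without the pairing.

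Against D164A/fl cells the response differed for 145 genes (1.13%), with 114 responses lower (0.886%) and 31 higher (0.241%) in D164A/- cells than in D164A/fl cells. Without the pairing 104 genes were called (0.808%), with a pseudocount of 0.1 it was 48, and edgeR on the whole reads called 2, Apcdd1 and Fyb, which are named here after their values were seen. D164A/fl cells had more called genes in their own response, with 560 higher (4.35%) and 406 lower (3.16%). Of the 82 genes that rose in D164A/- cells 75 were also called higher in D164A/fl cells, and of the 62 that fell 43 were called lower there. The 82 genes had a median change of 1.46 in D164A/- cells and 2.04 in D164A/fl cells.

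Squamous differentiation genes were among those whose responses differed. In D164A/fl cells 14 of 23 rose (median 2.68), and the response of 7 was more negative in D164A/- cells, namely Krt1, Krt6b, Krtdap, Dsg1a, Dsc1, Casp14 and Cnfn. In fl/fl cells 2 of the 23 rose (median 0.77). The median difference between the responses of D164A/- and fl/fl cells was 0.00 for this list. Krt6b, a keratin of stressed epidermis with the close copy Krt6a, went from 2.23 to 266 CPM and from 6.31 to 268 CPM in D164A/fl cells. In D164A/- cells it had 0 and 0.204 CPM in pair 1 and 0.253 and 0.365 CPM in pair 2 (difference -5.59, SE 0.81, adjusted p = 0.00719 in limma). Krt6b thus stayed below 1 CPM in D164A/- cells, where Axin2 reached 39.9 and 95.3 CPM. Dsg1a, a desmosomal cadherin, went from 0.641 to 36 CPM and from 0.18 to 19.4 CPM in D164A/fl cells and did not exceed 0.328 CPM in D164A/- cells (difference -4.05, SE 0.30). The same count of 7 was called without the pairing, but 1 with a pseudocount of 0.1 and 0 with edgeR. All 7 were at or below 1.5 CPM in every D164A/- sample.

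Psca and Serpinb11 had the largest negative differences beside Krt6b, at -5.36 and -4.65. Psca, a GPI-anchored surface protein, went from 0.135 to 53.2 CPM and from 0.577 to 82 CPM in D164A/fl cells and did not exceed 0.693 CPM in D164A/- cells. Apcdd1, a Wnt inhibitor at the membrane, went from 2.43 to 19.5 CPM and from 3.89 to 18.9 CPM in D164A/fl cells. It had 3.21 and 2.68 CPM in pair 1 and 5.66 and 4.34 CPM in pair 2 of D164A/- cells (difference -2.55, SE 0.28, adjusted p = 0.00169 in limma, 0.00226 without the pairing). Apcdd1 was well above the low values in all D164A/- samples, and its groups there overlapped. The Axin2 response differed by -0.90 (SE 0.49, adjusted p = 0.633), and that of Il17rd by -0.30 (SE 0.31, adjusted p = 0.885).

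For Csn3, Dusp6 and Etv5 a positive difference came with a smaller decrease in D164A/- cells than in D164A/fl cells. Csn3 went from 126 to 5.4 CPM and from 59.6 to 1.47 CPM in D164A/fl cells, and its response was 3.01 more positive in D164A/- cells (adjusted p = 0.00607 in limma, 0.831 without the pairing). For Csn1s1, αS1-casein, the difference was 2.94 (adjusted p = 0.0126, 0.93 without the pairing). Slc39a4, a zinc importer, had the same difference and was called without the pairing too (adjusted p = 0.036). In D164A/fl cells Dusp6 went from 339 to 39.7 CPM and from 255 to 27 CPM, and Etv5 from 148 to 17.7 CPM and from 149 to 13.6 CPM. The differences of 1.75 and 1.84 were not called without the pairing (adjusted p = 0.546 and 0.929).

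**Figure D5:**
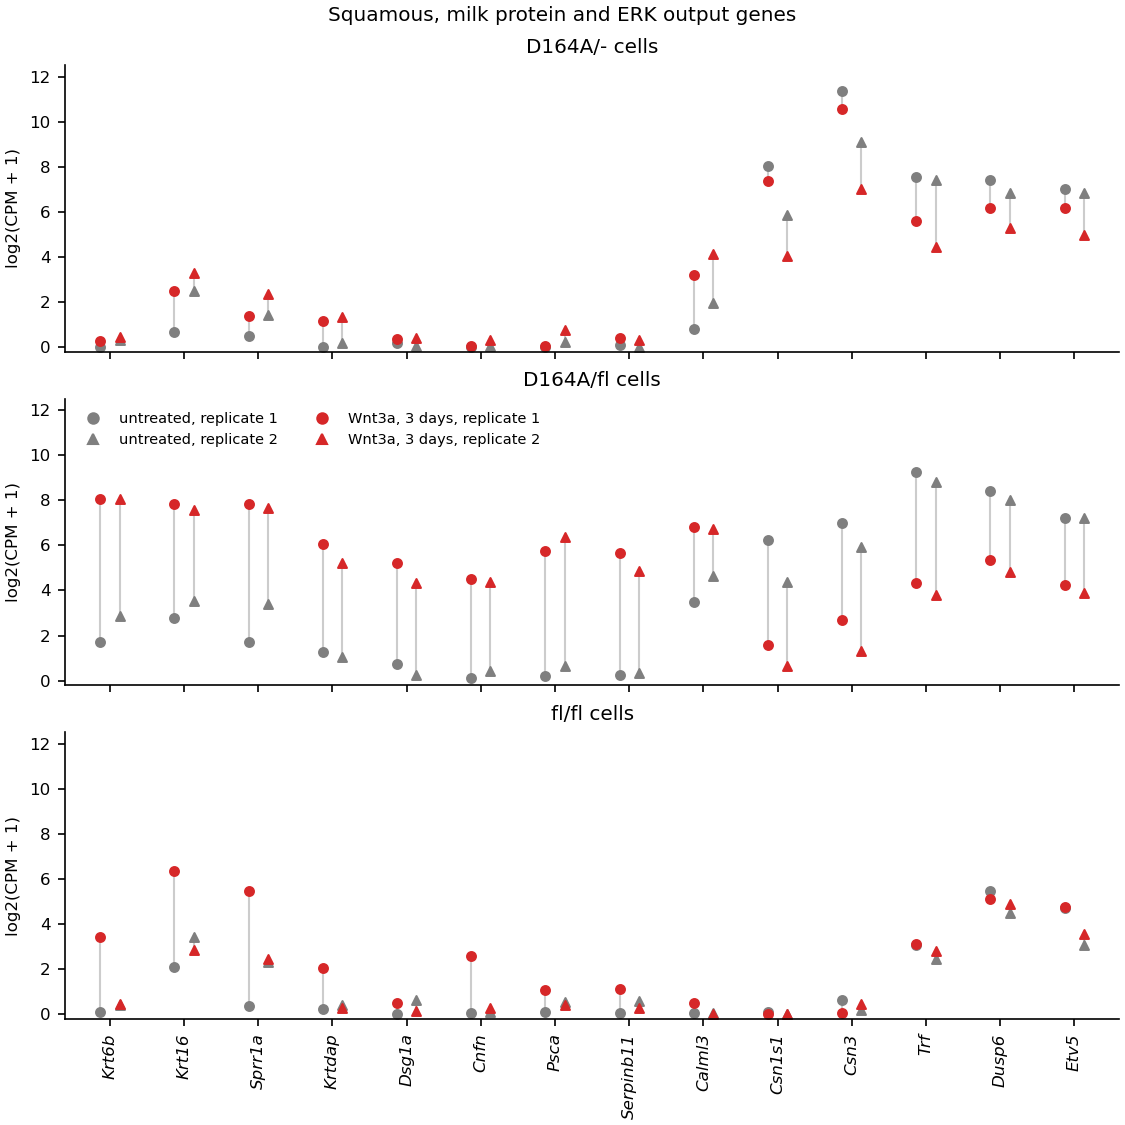
Levels (log2 of CPM + 1, vertical axis) of squamous, milk protein and ERK output genes in D164A/- (top), D164A/fl (middle) and fl/fl cells (bottom). Circles are replicate 1, triangles replicate 2, gray untreated, red Wnt3a; Krt6b, Dsg1a, Psca and Serpinb11 lie near 0 in all D164A/- samples and far above 0 in the treated D164A/fl samples.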

How the data were processed

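RNA was sequenced as single-end, stranded poly(A) libraries. Per the study's methods and the processing notes, the authors aligned reads with STAR to mm10, counted uniquely mapped reads over RefSeq exons with QuasR and normalized with edgeR. The deposited signal values of 20314 genes are reads per M of an effective library size. They were whole multiples of 1 read within 0.001 reads in all 56 samples. Symbols were matched for 20261 genes. Log2(CPM + 1) values of 24 samples (fl/fl, D164A/fl and D164A/-, Wnt3a and TGFβ experiments) were fitted with limma 3.58.1 in R 4.3.3, with 12 conditions and the replicate number as a block within genotype and experiment. A gene was tested if 2 or more samples reached 1 CPM (12868 genes). Responses were compared by interaction contrasts. edgeR 4.0.16 was run on the whole reads as an alternative. Genes named were the 15 largest increases and 10 largest decreases with groups that did not overlap, called list members, the 3 largest differences in each direction and a fixed set of pathway genes. The comparison and the lists were chosen with earlier results of these data known. Other alternatives were a pseudocount of 0.1, no filter, rescaling by median of ratios, only the compared samples, all 56 samples, removal of the GC trend, thresholds of p 0.05 and 1.5-fold, leaving out each replicate, and the untreated samples of the TGFβ experiment as control. Precision is limited by 2 replicates per condition.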

Additional observations from a re-analysis of the deposited data

Results flagged for a closer look

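Among the named genes, the Wnt3a response of D164A/- cells departed from that of another genotype in 40 differences by the interaction test in limma. The thresholds were a Benjamini-Hochberg adjusted p of 0.05 and a log2 difference of 1 or more in size. Over all 12868 genes tested, 511 were called against fl/fl cells and 145 against D164A/fl cells. Some genes were named for large changes in D164A/- cells or large differences in these same data. The sizes and directions listed are therefore not separate support. All values are responses of D164A/- cells minus those of the other genotype on the log2(CPM + 1) scale.

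Against fl/fl cells, genes of signaling and transcription differed by 3.27 (Il17rd), 2.02 (Ahr), -1.43 (Tcf7), 1.47 (Wnt7a), 1.35 (Wif1), 1.44 (Tnfrsf19), -1.41 (Dusp6) and -1.60 (Etv5). Epithelial and secreted products differed by 2.62 (Cryba4), 2.09 (Calml3), 1.14 (Tgm3), 2.96 (Mal), 1.71 (Msln), 1.61 (Serpina3h), 1.65 (Mmp7) and -1.24 (Csn2). Enzymes and channels differed by 3.42 (Dio2), 3.38 (Mme), 2.34 (Kcnj2), -3.49 (Atp6v0a4) and -2.71 (Cbs). The remaining genes differed by -3.57 (Bpifb4), -2.11 (Bpifb3), -2.67 (Trf), -1.77 (F13a1), -2.40 (Itgb3), -2.03 (Loxl3), -1.73 (Pi15), -1.62 (Tnc) and -2.77 (Vim). Bpifb4 had low values in all fl/fl samples, where a decrease could hardly show. These calls depend on the fit. Over all genes tested, 7 were called against fl/fl cells without the replicate pairing and 0 with only the compared samples. The difference from fl/fl cells also followed GC content (rank correlation -0.755).

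Against D164A/fl cells, squamous and surface genes differed by -5.59 (Krt6b), -5.36 (Psca), -4.65 (Serpinb11) and -2.02 (Sema4f), and Atp6v0a4 by -2.58. Milk protein genes differed by 3.01 (Csn3) and 2.94 (Csn1s1), the zinc importer Slc39a4 by 2.94, and the ERK feedback genes Dusp6 and Etv5 by 1.75 and 1.84.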

How the results depend on the processing

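Replicates of the same number deviated together in D164A/- cells (correlation of the treated and untreated deviations 0.891 across 12868 genes). The correlation was lower in fl/fl (0.514) and D164A/fl cells (0.677). With 2 pairs per line, neither these values nor the labels establish that the numbers pair the samples. Against 144, 511 and 145 calls for the response of D164A/- cells, its difference from fl/fl cells and its difference from D164A/fl cells in the fit with the replicate block, limma without the replicate block called 49, 7 and 104. All 49 were among the 144. edgeR on the whole reads called 119, 366 and 2 with the block. Without it, a fit added after the data were seen, edgeR called 17, 0 and 0 (902 and 381 genes at an unadjusted p under 0.05 for the zeros). With only the compared samples limma called 0, 0 and 25 (2225 and 1855 genes at an unadjusted p under 0.05 for the zeros). Without the filter on low values there were 87, 78 and 128 calls, with a pseudocount of 0.1 there were 132, 481 and 48, with all 56 samples 151, 81 and 189, after removal of the GC trend 181, 332 and 207 (129, 175 and 120 of them shared), and with looser thresholds (p of 0.05 without adjustment, 1.5-fold) 758, 3040 and 1052. Without 1 of the replicates there were 85 to 152, 401 to 2342 and 128 to 227 calls, where the lone samples are assumed to vary like the other groups. The lower end for D164A/- cells came without replicate 2. With the untreated D164A/- samples of the TGFβ experiment as control (4 days, no replicate block) 457 genes were called, 108 of them among the 144. The cause of these differences was not tested.

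Of 43 named genes called in D164A/- cells, 23 kept the call without the replicate block, 40 with edgeR and the block (Csn2, Csn3 and Spry4 did not), 35 with a pseudocount of 0.1, 32 without the filter and 43 after rescaling by the median of ratios. Changes of sign against the control of the TGFβ experiment were 0.23 (Bcl9l), 0.30 (Ccnd1), 0.07 (Slc39a4), -0.27 (Tcf7l2), 0.41 (Tnc) and 0.01 (Trabd2b), of which Tnc and Trabd2b had been called. Against this control Etv5, Loxl3, Rnf43 and Xbp1 also lost their calls. Called changes were over 1.5 times larger for Cldn4 (3.73), Cyp1a1 (4.11), Mal (4.44), Msln (6.25), Sp6 (2.92), F13a1 (-2.83), Itgb3 (-3.75) and Pi15 (-3.80), beside the luminal markers, and smaller for Atp6v0a4 (-1.80). Leaving out a replicate changed the sign of genes that were not called, with ranges from -0.13 to 0.49 (Cdh2), -0.23 to 0.14 (Lgr5), -0.09 to 0.11 (Pygo2), -0.91 to 0.16 (Slc39a4) and -0.27 to 0.43 (Tcf7l2). Pygo2 was also at -0.01 by the median of ratios, 0.00 with edgeR without the block and -0.03 after removal of the GC trend. Depth limits values near 0.102 to 0.127 CPM, which is 3 reads.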

Other observations

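Other called genes of D164A/- cells are named here after their values were seen, and belong to no list chosen for them. Foxi1, a forkhead factor that drives V-ATPase genes in ion-transporting cells, fell from 2.55 to 0.339 CPM in pair 1 and from 1.77 to 0.146 CPM in pair 2 (log2 change -1.34, SE 0.20, adjusted p = 0.00915 in limma, 0.141 without the replicate pairing). It was listed at 0 in all 4 fl/fl samples. The V-ATPase subunit Atp6v1c2 rose from 1.06 to 5.36 CPM and from 1.18 to 6.09 CPM, whereas Atp6v0a4 fell. Rdh10, which oxidizes retinol toward retinoic acid, rose from 22.5 to 64.8 CPM and from 30.1 to 93.3 CPM (log2 change 1.54, SE 0.24, adjusted p = 0.0118, 0.0368 without the pairing).

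Lrp4, a receptor of the LDL receptor family that binds Wnt inhibitors, rose from 14.3 to 34.2 CPM and from 15.8 to 75.8 CPM (adjusted p = 0.0305 in limma, 0.105 without the pairing). Gas1, a coreceptor of Hedgehog ligands, fell from 41.6 to 16 CPM and from 52.3 to 11.7 CPM (adjusted p = 0.0244, 0.0453 without the pairing). Flt1, a VEGF receptor, fell from 21.1 to 8.18 CPM and from 19 to 4.6 CPM (adjusted p = 0.00949, 0.0671 without the pairing). All 20 genes of cholesterol and fatty acid synthesis had a change above 0, with a median of 0.44 and a range from 0.05 (Dhcr7) to 0.74 (Hmgcs1), and none was called. The median of this list was similar in the other lines, at 0.41 in fl/fl and 0.38 in D164A/fl cells.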
